A study of Rattus norvegicus with 6 samples.

Results

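The genes described here make cholesterol or control its synthesis through SREBP2, in cultured rat ADSCs (adipose-derived stem cells), stromal cells of fat that can become adipocytes. They were taken from a fixed list of 27 symbols, of which 26 matched a feature on the array and Mvk was not analysed here, out of 18166 genes measured. RNA was read on 3 arrays of adipogenic-induced ADSCs and 3 arrays of control ADSCs, all labelled as biological replicates. Both groups came from inguinal fat of female Wistar rats aged 2 weeks, and the labels do not say which cultures share an animal or a pool of animals. Induced cells were kept for 7 days in alpha-MEM with 0.5 mM 3-isobutyl-1-methylxanthine (a phosphodiesterase inhibitor), 5 µg/ml insulin, 1 µM of the synthetic glucocorticoid dexamethasone, and 20% fetal bovine serum. Control cells grew in alpha-MEM with 10% fetal bovine serum, for a time not given in the sources used here. Serum, which carries lipoprotein cholesterol, was thus not matched, and the effects of serum and of the inducers cannot be told apart.

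Cells build cholesterol from acetyl-CoA through mevalonate, farnesyl diphosphate, squalene and lanosterol. The transcription factor SREBP2, the product of Srebf2, is made as a membrane protein of the endoplasmic reticulum. SCAP escorts it to the Golgi when sterols are scarce, the proteases encoded by Mbtps1 and Mbtps2 release its active part there, and the INSIG proteins hold SCAP back when sterols are plentiful. Adipocytes are known to hold much free cholesterol around their fat droplets, and much of it comes from the blood rather than from synthesis.

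Values are log2 RMA signals (a normalized array brightness), and every change is induced minus control with the standard error (SE) of a limma fit over all genes. A gene was called changed at a Benjamini-Hochberg adjusted p under 0.05. The 6 arrays had medians from 5.64 to 5.73. Induced replicate 3 stood apart, with r = 0.9681 and 0.9687 across features to the other induced arrays, which correlated with each other at 0.9894. Induced replicates 1 and 2 were closer to control replicate 1 (0.9793 and 0.9816) and control replicate 2 (0.9755 and 0.9775) than to induced replicate 3. With control replicate 3 they correlated at 0.9672 and 0.9697. Mature adipocyte markers checked the labels: all 10 lay higher on every induced array than on any control array, and their mean was 10.65, 10.63 and 11.60 on induced replicates 1 to 3, against 8.45, 7.01 and 6.87 on control replicates 1 to 3. Of 9 stromal markers 7 had negative estimates and 2 positive ones, and the 1 call was Dlk1, a preadipocyte factor, which rose by 1.02 (adjusted p = 0.033). Thy1 read 11.11, 11.10 and 11.21 in induced cells, against 12.16, 11.84 and 12.33 in control cells (change -0.97, adjusted p = 0.0507). Pdgfra read 11.99, 11.95 and 9.05 in induced cells, against 12.26, 11.77 and 11.61 in control cells, with induced replicate 3 far below the rest. The mean of 14 macrophage and leukocyte markers was 7.83, 7.29 and 5.90 in induced cells, against 6.79, 7.21 and 5.51 in control cells, lowest on replicate 3 of both groups. None of the 14 was called, and their part in the results below was not tested. Means of 6 endothelial and 7 mural markers lay between 5.25 and 5.44 and between 6.58 and 6.81 in induced cells, against 5.28 to 5.51 and 6.72 to 6.93 in control cells. In such bulk RNA, fewer cells of a type and less RNA per cell cannot be told apart.

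The cholesterol genes as a set did not move in one direction after 7 days of induction. Estimates were positive for 13 of the 26 genes and negative for 13, with a median log2 change of -0.0042, against a median of -0.013 over all genes. By limma 0 of the 26 passed at an adjusted p under 0.05, where 0.749% of all genes did, and the smallest adjusted p was 0.1, that of Sc5d. With array weights in the same fit 1 of the 26, Sc5d, was called, where 5.11% of all genes were. At an unadjusted p under 0.05 there were 8 of the 26 (30.8%), 3 with positive and 5 with negative estimates, where 17.6% of all genes reached it. The 3 induced arrays lay wholly to one side of the 3 control arrays for 8 of the 26 (30.8%), where 25.4% of all genes did so. There were 3 above, against 12% of all genes, and 5 below, against 13.4%. The non-overlapping shares lie near those of all genes. The mean of the 26 genes was 9.08, 9.15 and 9.61 on the induced arrays, against 9.33, 9.09 and 9.19 on the control arrays, so the groups overlapped.

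Missing the threshold does not show that a gene stayed level, and the fit's 95% intervals, which are not adjusted for the number of genes, give the room left for a change. For 15 of the 26 genes the whole interval lay inside a 2-fold change in either direction, where 14661 of all 18166 genes did so. That is a smaller share than among all genes, but the comparison was not matched for brightness. All 26 genes had a mean log2 signal of at least 6, as did 10264 of the 18166 genes. The interval was widest for Lss, the lanosterol synthase, from -1.08 to 1.70, and narrowest for Sc5d, a sterol desaturase, from -0.70 to -0.22. Of the 26 estimates, 25 were below 2-fold and 1 was above it, that of Insig1, where 4.98% of all genes averaged 2-fold or more apart.

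**Figure D1:**
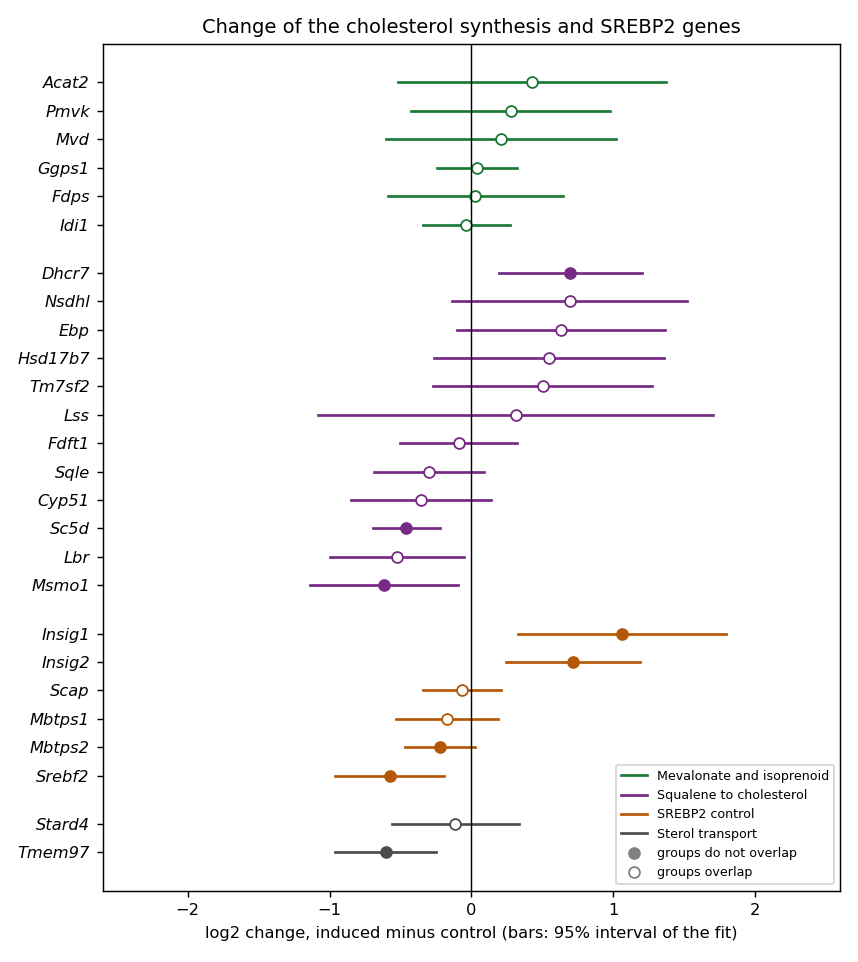
Log2 change (induced minus control, horizontal axis) of each of the 26 genes, grouped by role, with the 95% interval of the fit as a bar. Filled points are the 8 genes whose 3 induced and 3 control arrays do not overlap, Insig1 at 1.06 lies furthest right and Msmo1 at -0.62 furthest left, and no gene was called at an adjusted p under 0.05.

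Among the controllers of SREBP2, both INSIG genes lay higher on every induced array and Srebf2 lay lower on every induced array, although no controller passed the test. Insig1, which encodes the sterol-sensing anchor of SCAP and is itself a classical SREBP target, read 11.28, 11.36 and 12.40 in induced cells, against 10.84, 10.54 and 10.50 in control cells. The groups did not overlap, and induced replicate 3 was the highest array by about 1 unit. The change was 1.06 (SE 0.31, adjusted p = 0.164, n = 3 arrays each), or 2.08-fold. Without induced replicate 3 it was 0.70 (adjusted p = 0.059). With any other single array left out, the adjusted p lay between 0.201 and 0.397.

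Insig2 encodes the second INSIG protein, which is known for being less dependent on SREBP. It read 7.93, 8.06 and 8.44 in induced cells, against 7.71, 7.43 and 7.14 in control cells. The lowest induced array lay above the highest control array, by less than the spread within either group. The change was 0.71 (SE 0.20, adjusted p = 0.151), or 1.64-fold.

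Srebf2 itself read 9.67, 9.51 and 9.13 in induced cells, against 10.00, 9.93 and 10.11 in control cells. Its control arrays lay within 0.2 of each other, and the lowest of all arrays was again induced replicate 3. The change was -0.58 (SE 0.16, adjusted p = 0.153), a level 0.671 times that of control cells, and -0.42 without induced replicate 3.

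The escort and the proteases had smaller estimates. Scap averaged 9.14 ± 0.12 in induced cells and 9.21 ± 0.10 in control cells (SD, n = 3 each), a change of -0.07 with an interval from -0.34 to 0.21. Mbtps1, the protease that makes the first cut, stood at -0.17 (adjusted p = 0.607). Mbtps2, the protease of the second cut within the membrane, read 7.99, 7.87 and 7.84 in induced cells, against 8.06, 8.17 and 8.13 in control cells. Its groups did not overlap, yet the change was small at -0.22 (SE 0.10, adjusted p = 0.335).

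**Figure D2:**
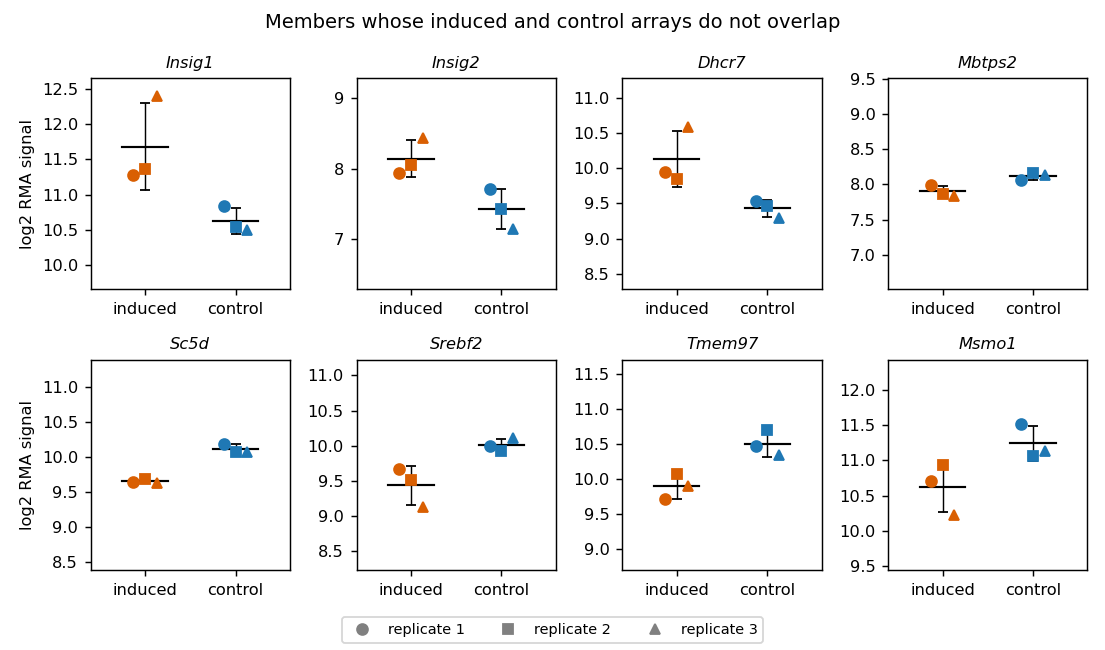
Log2 RMA signal (vertical axes, each spanning 3 units) on each array for the 8 genes whose groups do not overlap, induced left and control right, with replicate numbers as symbols, the mean as a line and the SD as a bar. Insig1, Insig2 and Dhcr7 lie above control and Mbtps2, Sc5d, Srebf2, Tmem97 and Msmo1 below it, and induced replicate 3 is the furthest induced array from control for all of them but Tmem97.

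Promoter windows, from 250 bases before to 50 bases after the start of the gene, were found in RefSeq (GRCr8) for 22 of the 26 genes, and Fdft1, Pmvk, Sqle and Stard4 were not matched. The windows of Insig1 and Srebf2 are shown because these genes control each other's pathway and lay on opposite sides of control, and those of Sc5d and Tmem97 because they had the smallest adjusted p of the set. Capitals mark 3 motifs searched on both strands: TCACCCCA, the core letters of a classical sterol regulatory element; CCAAT, the box bound by NF-Y, a usual partner of SREBP; and CACGTG, an E-box, a palindrome that SREBP proteins can also bind. None of these letter runs overlapped another in the windows shown. The Insig1 window lies at chr4:8057720-8058019 on the minus strand, that of Srebf2 at chr7:115543057-115543356 on the plus strand, that of Sc5d at chr8:51538228-51538527 and that of Tmem97 at chr10:63945310-63945609, both on the minus strand. All 4 are written 5′ to 3′ on the strand of the gene.
Insig1: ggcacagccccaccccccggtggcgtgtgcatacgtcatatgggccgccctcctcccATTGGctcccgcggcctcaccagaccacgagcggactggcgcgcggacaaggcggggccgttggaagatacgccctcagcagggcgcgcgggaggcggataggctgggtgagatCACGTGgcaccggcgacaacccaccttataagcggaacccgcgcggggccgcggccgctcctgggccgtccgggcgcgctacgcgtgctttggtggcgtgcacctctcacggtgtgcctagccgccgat
Srebf2: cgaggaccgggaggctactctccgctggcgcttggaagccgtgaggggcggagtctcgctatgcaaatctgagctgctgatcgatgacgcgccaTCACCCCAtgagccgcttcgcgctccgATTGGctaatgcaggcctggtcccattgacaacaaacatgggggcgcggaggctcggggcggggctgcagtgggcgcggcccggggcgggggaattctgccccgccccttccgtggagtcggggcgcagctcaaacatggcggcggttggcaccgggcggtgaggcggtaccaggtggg
Sc5d: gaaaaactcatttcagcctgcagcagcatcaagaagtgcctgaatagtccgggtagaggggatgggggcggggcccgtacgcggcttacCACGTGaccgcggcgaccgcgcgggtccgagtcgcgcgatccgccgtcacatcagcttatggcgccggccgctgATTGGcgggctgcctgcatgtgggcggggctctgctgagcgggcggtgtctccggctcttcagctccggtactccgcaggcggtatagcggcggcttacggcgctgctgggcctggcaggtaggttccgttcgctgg
Tmem97: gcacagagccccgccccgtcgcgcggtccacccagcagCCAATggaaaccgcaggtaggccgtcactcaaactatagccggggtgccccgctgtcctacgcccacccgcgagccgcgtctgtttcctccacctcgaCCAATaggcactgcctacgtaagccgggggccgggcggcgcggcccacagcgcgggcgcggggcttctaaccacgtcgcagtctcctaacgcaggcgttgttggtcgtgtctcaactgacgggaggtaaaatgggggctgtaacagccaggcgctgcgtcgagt

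The Srebf2 window was the 1 window of the 22 with the letters TCACCCCA, which begin 156 bases before the start, ahead of a CCAAT box on the other strand that begins 129 bases before the start. Those letters occur in 1.37% of all 33469 windows. CCAAT on either strand was found in 16 of the 22 windows (72.7%) and in 37.5% of all windows, with no matching for base composition. CACGTG was found in 3 of the 22, those of Insig1, Sc5d and Scap, and in 6.42% of all windows. Genes with a CCAAT box lay on both sides of control, Insig1 and Insig2 above it and Srebf2, Sc5d, Tmem97 and Msmo1 below it. A match of letters is a description of the window and not a binding site.

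The 6 listed genes from the first part of the pathway, up to the isoprenoids, lay close to control on 2 of the 3 induced arrays. Of these 0 passed. They do not cover every step of that part, and Mvk is not among them. Acat2, the cytosolic thiolase that joins acetyl-CoA units, had the largest estimate of the 6. It read 8.27, 8.61 and 9.88 in induced cells, against 8.46, 8.40 and 8.61 in control cells, so that induced replicate 3 alone lay above the control range by over 1 unit. The change was 0.43 (SE 0.40, adjusted p = 0.638), and -0.056 without induced replicate 3. Pmvk, the phosphomevalonate kinase, stood at 0.28 and Mvd, the decarboxylase that follows it, at 0.21, and both turned to the other sign without that array, at -0.064 and -0.20.

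Downstream of these, Idi1, the isopentenyl diphosphate isomerase, stood at -0.04 with an interval from -0.34 to 0.27. Fdps makes farnesyl diphosphate, the branch point between sterols and the lipid tails of proteins, and averaged 10.97 ± 0.54 in induced cells and 10.94 ± 0.05 in control cells (SD, n = 3 each). Its spread in induced cells came from replicate 3, at 11.59, the other induced arrays reading 10.65 and 10.67. Ggps1, which makes geranylgeranyl diphosphate for protein prenylation, stood at 0.04 and had the narrowest interval of the 6, from -0.24 to 0.32.

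From squalene to cholesterol 0 of 12 genes passed, with positive estimates for 6 and negative estimates for 6. Negative estimates belonged to Fdft1 (squalene synthase, -0.09), Sqle (squalene epoxidase, the step often held to limit sterol flux, -0.30), Cyp51 (lanosterol demethylase, -0.35), Lbr, Sc5d and Msmo1. Positive ones belonged to Lss (0.31), Tm7sf2 (0.50), Hsd17b7 (a ketoreductase, 0.54), Ebp (a sterol isomerase, 0.63), Nsdhl (0.69) and Dhcr7 (0.70). Without induced replicate 3 these were -0.39 for Lss, 0.20 for Tm7sf2, 0.27 for Hsd17b7, 0.28 for Ebp, 0.30 for Nsdhl and 0.47 for Dhcr7.

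Sc5d, which places a double bond in the sterol ring just ahead of the step of Dhcr7, was the most even of the set within groups. It read 9.64, 9.69 and 9.62 in induced cells, against 10.19, 10.07 and 10.07 in control cells. Both groups spanned under 0.2 units, and no array crossed over. The change was -0.46 (SE 0.10, unadjusted p = 0.00279, adjusted p = 0.1 by limma), a level 0.727 times that of control cells. Its estimate ranged from -0.48 to -0.42 with any 1 array left out. Over the 15 alternative fits its adjusted p ran from 0.0424, with array weights, to 0.278, without control replicate 2.

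Dhcr7, the reductase that turns 7-dehydrocholesterol into cholesterol, lay on the other side. It read 9.95, 9.85 and 10.59 in induced cells, against 9.53, 9.46 and 9.30 in control cells. All induced arrays lay above control, replicate 3 by the most. The change was 0.70 (SE 0.21, adjusted p = 0.174), or 1.62-fold. Sc5d and Dhcr7 act one after the other and had estimates of opposite sign. Whether the 2 changes differ was not tested.

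Msmo1, the methyl sterol oxidase, read 10.70, 10.94 and 10.23 in induced cells, against 11.52, 11.06 and 11.14 in control cells. Induced replicate 3 was the lowest array, in contrast to its place for most enzymes of the pathway. The change was -0.62 (SE 0.22, adjusted p = 0.225), the lowest estimate of the 26. Nsdhl, which acts next on the same methyl groups, averaged 10.10 ± 0.68 in induced cells and 9.40 ± 0.30 in control cells (SD, n = 3 each), and the groups overlapped.

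Tm7sf2 and Lbr encode sterol reductases that can carry out the same step after Cyp51, and Lbr is also a receptor for lamin B in the nuclear membrane. Their estimates differed in sign. Lbr averaged 8.02 ± 0.32 in induced cells and 8.55 ± 0.22 in control cells, a change of -0.53 (SE 0.20, adjusted p = 0.244). Tm7sf2 averaged 8.37 ± 0.53 in induced cells and 7.87 ± 0.44 in control cells (SD, n = 3 each), a change of 0.50 (SE 0.32, adjusted p = 0.483). Both overlapped between groups, and the difference between the 2 changes was not tested.

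The pair of sterol transport genes had negative estimates and 0 of 2 passed. Tmem97, the sigma-2 receptor, a membrane protein that binds the lysosomal cholesterol transporter NPC1, read 9.71, 10.07 and 9.90 in induced cells, against 10.46, 10.69 and 10.33 in control cells. The groups did not overlap, and induced replicate 3 lay between the other induced arrays. The change was -0.60 (SE 0.15, adjusted p = 0.123), a level 0.658 times that of control cells, and -0.61 without induced replicate 3. Stard4, a soluble sterol carrier, stood at -0.11 with an interval from -0.56 to 0.33.

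Much of the spread within the set came from 1 array. Induced replicate 3 was the highest of the 6 arrays for 14 of the 26 genes and the lowest for 7, against 26% and 28.9% of all genes. It lay over 2-fold above the mean of the other induced arrays for 7 of the 26 (26.9%), against 4.26% of all genes, and over 2-fold below it for 0 of the 26, against 3.95%. These shares were not matched for brightness. A large share was not particular to this set, as 60% of the mature adipocyte markers lay over 2-fold above in the same way. In lists described below it was 58.3% (Srebf1 and lipogenic genes) and 50% (other pathway enzymes). It was 13.3% of isoprenoid users, 12.5% of uptake, transport and efflux genes, and 0% of sterol-regulated degradation and COPII genes. The 7 cholesterol genes were Lss, Acat2, Mvd, Nsdhl, Insig1, Ebp and Pmvk, singled out after their values were seen. Lss was the furthest, reading 9.23, 9.15 and 11.29 on induced replicates 1 to 3, against 9.47, 9.22 and 10.04 in control cells. Srebf2, Msmo1, Lbr and Mbtps1 lay the other way on that array, by -0.46, -0.59, -0.46 and -0.42. The adipocyte marker mean was also highest on this array and the macrophage marker mean the lowest of the induced arrays, and their part in these gaps was not tested.

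**Figure D3:**
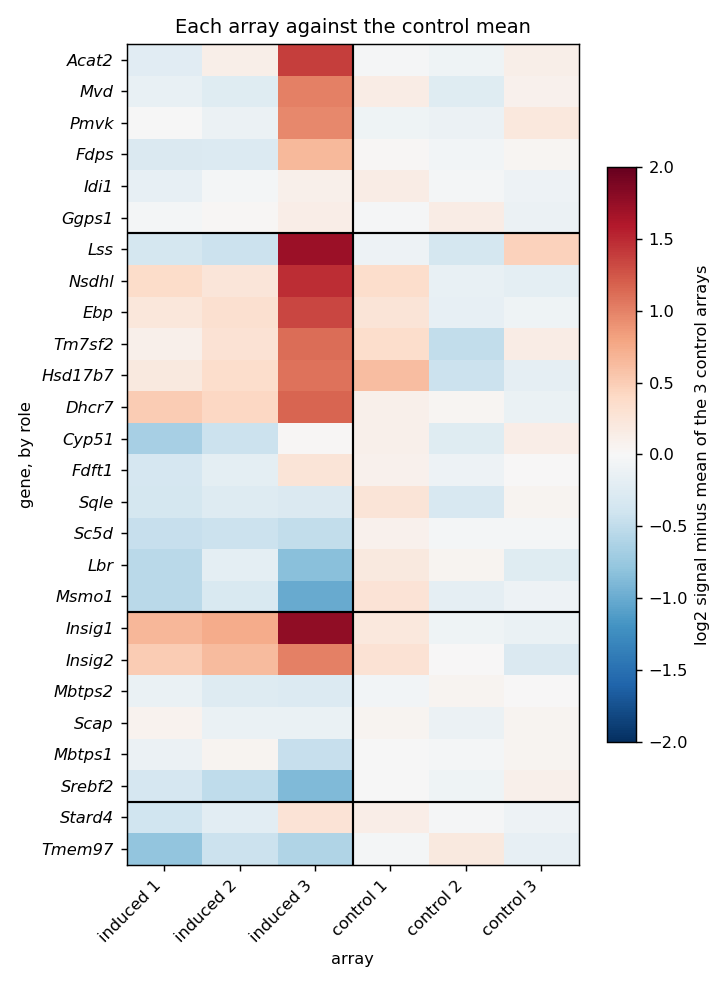
Log2 signal of each gene (rows, grouped by role) on each array (columns, induced left, control right) minus the mean of the 3 control arrays, from blue (lower) to red (higher). The column of induced replicate 3 holds the strongest red, at Insig1 and Lss, while Sc5d and Tmem97 are blue on all 3 induced arrays.

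Without induced replicate 3 more of the set had negative estimates. Positive estimates then numbered 7 of 26 and the median was -0.15, against -0.011 over all genes, and 0 of 26 were called where 3.07% of all genes were. Insig1, Insig2, Dhcr7, Tm7sf2, Nsdhl, Hsd17b7 and Ebp kept positive estimates, from 0.20 (Tm7sf2) to 0.70 (Insig1). The estimate of Lss became -0.39 and that of Fdps -0.28, neither of them called. With both replicate 3 arrays left out the median was -0.15 as well, and 0 of 26 were called where 4.07% of all genes were. Leaving out induced replicate 1 instead gave 16 of 26 positive estimates and a median of 0.055.

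**Figure D4:**
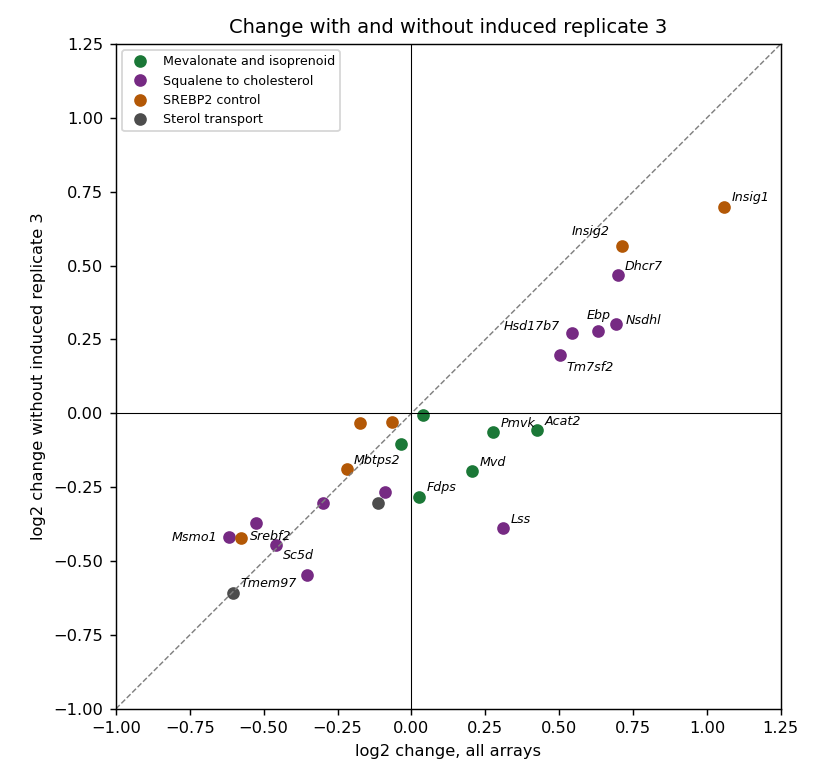
Log2 change (induced minus control) of each of the 26 genes with all arrays (horizontal axis) and without induced replicate 3 (vertical axis), with a dashed line of equality. Lss, Acat2, Mvd, Pmvk, Fdps and, close to 0, Ggps1 cross from positive to negative estimates, while Sc5d and Tmem97 lie on the line.

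Control arrays also differed among themselves. Control replicate 1 was the highest of the 3 control arrays for 15 of the 26 genes, against 37.1% of all genes, and control replicate 2 the lowest for 15, against 31%. The largest such gap was in Hsd17b7, at 9.22 on control replicate 1, against 8.18 and 8.43 on the other control arrays. Control replicate 1 also had the highest adipocyte marker mean of the control arrays, and whether that bears on these genes was not tested.

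Other genes of sterol and lipid metabolism, in lists drawn up from knowledge of the pathways when the values of some lipogenic genes were already known, gave 4 calls in all, each of them higher in induced cells. Among other enzymes and electron carriers listed beside the pathway, not all of them specific to sterols, 0 of 8 passed. The largest estimates were those of Hsd17b12, a reductase of fatty acid elongation, at 1.34 (adjusted p = 0.13), and Cyb5b, an outer mitochondrial membrane cytochrome, at 1.27 (adjusted p = 0.133). Of 15 genes that use isoprenoids 0 passed, led by Dolk, the dolichol kinase, at 1.30 (adjusted p = 0.168) and Coq2, of ubiquinone synthesis, at 0.74 (adjusted p = 0.133). The 21 genes of sterol-regulated protein degradation and of the COPII coat, which carries SCAP and SREBP2 out of the endoplasmic reticulum, also held 0 calls. Their largest estimates were those of the coat genes Sec23a, at -0.79 (adjusted p = 0.115), and Sec24d, at -0.75 (adjusted p = 0.181), both with every induced array below every control array.

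The 4 calls lay in the list of cholesterol uptake, transport and efflux and in that of Srebf1 and its known lipogenic targets. Whether Srebf1 drives them here was not tested. Over all genes 0.479% were called higher. Of 24 genes of cholesterol uptake, transport and efflux 16 had positive estimates, where 47.6% of all genes did. The 1 called was Abcg1, a sterol exporter, higher by 3.51 (SE 0.51, adjusted p = 0.0465). It read 10.14, 9.92 and 11.02 in induced cells, against 7.96, 6.47 and 6.14 in control cells. Of the 12 genes in the list of Srebf1 and its known lipogenic targets 11 had positive estimates. In 9 of them every induced array lay above every control array, where 12% of all genes did so. The 3 called were Pnpla3, Scd and Me1, higher by 5.36, 3.38 and 3.31 (adjusted p = 0.0181, 0.0115 and 0.0144). The median of that list was 2.10, against -0.0042 for the cholesterol genes. None of the 4 calls was held without control replicate 2 or without induced replicate 1, when 0 genes of these lists were called. Without control replicate 3 there was 1 call and without induced replicate 3 there were 13.

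The genes for the SREBP proteins had estimates of opposite sign. Srebf1, which encodes the partner of SREBP2 that drives fatty acid synthesis and was singled out after its values were seen, read 9.45, 9.31 and 11.17 in induced cells, against 7.77, 7.30 and 8.40 in control cells. Its change of 2.15 (SE 0.54, adjusted p = 0.126) stands beside the -0.58 of Srebf2, and neither was called. The groups did not overlap for either gene, and the difference between the changes was not tested.

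**Figure D5:**
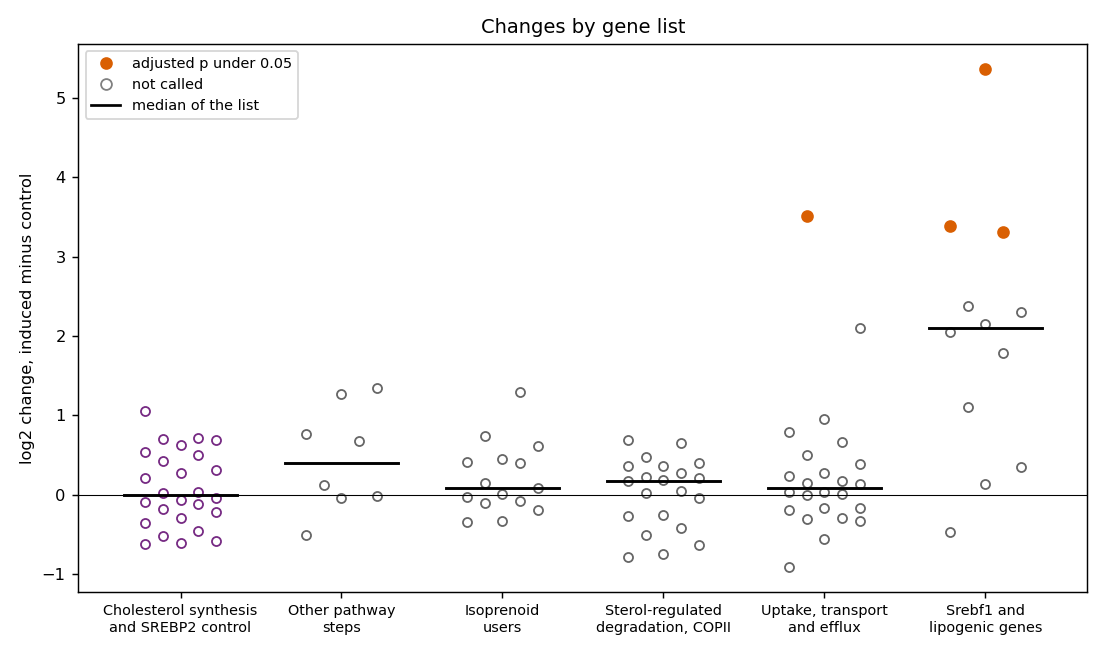
Log2 change (induced minus control, vertical axis) of every measured gene in the cholesterol synthesis and SREBP2 set and in 5 other lists, with the list median as a line and genes called at an adjusted p under 0.05 filled. The cholesterol genes span -0.62 to 1.06 around a median of -0.0042, while the list of Srebf1 and its known lipogenic targets has a median of 2.10.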

How the data were processed

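Log2 signals of 36685 features on 6 one-colour Affymetrix arrays were used as deposited. The authors made them with RMA (background-corrected, quantile normalized and summarized per feature), according to the submitters' processing notes. Its version and the genome build are not given in the sources used here. The log2 scale was read from the values. RMA gives no detection call and compresses changes of dim genes, quantile normalization hides changes in total RNA, and the number of arrays limits the precision. GEO's platform annotation gave 18511 features 1 symbol, and the feature with the highest mean was kept for each of 18166 genes; each of the 26 genes described had 1 feature.

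The comparison used lmFit and eBayes of limma 3.58.1 (R 4.3.3, two-sided, no block, 4 residual degrees of freedom), with Benjamini-Hochberg adjustment over all genes. The fit was tested on simulated independent normal values. That simulation held no outlying array, so it does not cover an array such as induced replicate 3. An exact permutation test of 3 against 3 cannot go below p = 0.1. P-values measure the spread between these cultures, which may be partly technical. The members and lists were chosen with earlier results of these data known. Every measured gene of the set is named, with values on all arrays for those whose groups do not overlap and for the largest change of each role; up to 3 genes are named from each other list, the called ones or otherwise the 2 largest changes, and Srebf1, Dlk1 and other label-checking markers are named beside this rule. Alternatives were the replicate block, array weights, another prior, other scaling, averaged features, a filter on dim genes, adjustment over all features, and arrays left out.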

Additional observations from a re-analysis of the deposited data

How the results depend on the processing

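The count of called cholesterol genes was 0 in the reported fit and in 14 of 15 alternatives, and 1 (Sc5d) with array weights. Their median log2 change ran from -0.153 without both replicate 3 arrays to 0.055 without induced replicate 1. The mean of the 26 genes had an SD of 0.286 over the induced arrays and 0.12 over the control arrays. The first SD includes induced replicate 3, so it is no independent measure for the fits without that array. Calls in the other lists, 4 as reported, were 2 with the replicate block, 15 with array weights, 13 without both replicate 3 arrays and 0 to 13 with 1 array left out. Calls over all genes, 136 as reported, were 12 with the block, 929 with array weights, 58 adjusted over all features, 740 without both replicate 3 arrays and 2 to 557 with 1 array left out. The arrays do not settle whether equal replicate numbers share an animal. Deviations from group means correlated at 0.023, 0.12 and 0.154 for replicates 1 to 3. Control replicate 1 correlated best with induced replicate 2, at 0.043, and control replicate 2 with induced replicate 1, at 0.123. Control replicate 3 correlated best with induced replicate 3, against -0.125 and -0.142 with the other induced arrays. The block called 0 of the 26. Direction held in all alternatives for 17 of the 26 genes. Some alternatives could not alter these estimates: the block, the other prior, averaged features, the dim filter and adjustment over all features. With array weights Mvd turned to -0.028, Fdps to -0.19, Ggps1 to -0.036 and Lss to -0.14, and without both replicate 3 arrays to -0.15, -0.27, -0.064 and -0.16. With 1 array left out, Acat2 ran from -0.056 to 0.75, Pmvk from -0.064 to 0.47, Mvd from -0.20 to 0.43, Idi1 from -0.11 to 0.039, Fdps from -0.28 to 0.19, Ggps1 from -0.0205 to 0.11, Fdft1 from -0.27 to 0.029, Lss from -0.39 to 0.68 and Stard4 from -0.31 to 0.027. No gene that changed sign was called in any of these fits, and the cause of these turns was not tested.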
